A study of Mus musculus with 8 samples.

Results

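The comparison set B16F10 mouse melanoma cells that carried a hairpin against Drg2 (shDRG2) against B16F10 cells with the empty hairpin vector pLKO, both left without interferon-gamma (IFN-γ). It rests on 4 of the 8 RNA sequencing libraries of the series, 2 per group, chosen by their line and treatment labels, and it covers all named genes. The other 4 libraries hold the same lines, shDRG2 and pLKO, after 24 h with 5 ng/ml of IFN-γ, and they are used here only to set the same contrast beside the unstimulated one. The protocol text in the labels describes RNA integrity numbers above 8.5. Each line is represented once, and the labels do not say whether it is a clone or a pool, so a difference between shDRG2 and pLKO cells cannot be told apart from one between these particular lines or from another effect of the hairpin. The labels do not say whether the replicates came from separate cultures, so the p-values measure only the spread between these samples.

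DRG1 and DRG2 are conserved GTP-binding proteins of the developmentally regulated family. Each is held stable by a partner protein: DFRP1, the product of Zc3h15, binds DRG1, and DFRP2, the product of Rwdd1, binds DRG2. DRG2 has been studied for its part in endosome traffic, microtubules and mitochondrial dynamics. B16F10 is a pigmented line from C57BL/6 mice, and IFN-γ acts on such cells through JAK kinases to switch on antigen presentation and chemokine genes.

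Expression is given in CPM, each count scaled by the TMM-adjusted total of its library. Fold changes are shDRG2 over pLKO on the log2 scale, with the standard error (SE) of the fit, and a gene is called changed where its adjusted p-value from edgeR's quasi-likelihood test, over the 13500 genes tested, is below 0.05. The unstimulated libraries held 32564511 and 25422758 counts in shDRG2 cells, and 32855974 and 30813905 counts in pLKO cells. Replicates correlated at r = 0.992 in shDRG2 cells and r = 0.993 in pLKO cells across genes on the log CPM scale. As a check of the melanoma label, all 10 melanocyte markers were expressed highly enough to be tested, and 0 were called. Of the 10, 8 had a positive log2 fold change and 2 a negative one, with a median of 0.16. An unadjusted p below 0.05 was found for 4 of them. Dct, a melanin synthesis enzyme on chromosome 14, was 1 of the 2 negative ones. It stood at 4461 and 4349 CPM in shDRG2 cells, against 4464 and 4714 CPM in pLKO cells. Of 10 markers of T, B and NK cells, 7 had 0 counts in all 4 unstimulated libraries, and the list summed to 0.342 and 0.194 CPM in shDRG2 cells and to 0.153 and 0.250 CPM in pLKO cells. The 10 myeloid markers summed to 1.03 and 0.852 CPM in shDRG2 cells and 0.916 and 1.34 CPM in pLKO cells, with Ptprc, the pan-leukocyte marker, at 0 in all 4. The 10 fibroblast markers summed to 29.97 and 27.81 CPM in shDRG2 cells and to 31.21 and 27.95 CPM in pLKO cells, mostly from Col1a2, at 18.9 and 17.1 CPM in shDRG2 cells and 18.2 and 14.7 CPM in pLKO cells; Dcn and Thy1 were at 0 in all 4, and 0 of the list were called. The 10 epithelial markers summed to 0.653 and 0.504 CPM in shDRG2 cells and to 0.305 and 0.719 CPM in pLKO cells.

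Drg2 (ENSMUSG00000020537.9, chromosome 11, 60454591 to 60468754, plus strand, GRCm38) was at 8.67 and 9.34 CPM in shDRG2 cells, against 76.3 and 68.6 CPM in pLKO cells. The transcript therefore remained measurable in both knockdown libraries, at 279 and 241 counts, against 2498 and 2194 counts in pLKO cells. Its log2 fold change was -3.01 (95% interval -3.26 to -2.76, SE 0.114, adjusted p = 1.53e-06). The other members of the family and its partners were not called. Drg1, the paralog, was at 132 and 115 CPM in shDRG2 cells and 118 and 104 CPM in pLKO cells, a log2 fold change of 0.15 with a 95% interval of -0.07 to 0.38. For Rwdd1, whose product partners DRG2, the interval of the log2 fold change was -0.17 to 0.14, and for Zc3h15, whose product partners DRG1, it was -0.23 to 0.19. Cd274, which encodes the checkpoint ligand PD-L1, was at 9.64 and 10.4 CPM in shDRG2 cells and 8.86 and 11.2 CPM in pLKO cells (interval -0.27 to 0.27), and was not called either.

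Beside Drg2, knockdown cells differed in a set of further genes, with the deepest losses among genes that pLKO cells transcribed at low levels. Of the genes tested, 162 were called, or 1.2%: 63 were higher in shDRG2 cells (0.467%) and 99 lower (0.733%), and 1723 had an unadjusted p below 0.05. The change was at least 2-fold in 66 of them, 19 higher and 47 lower, and under 1.5-fold in 46. The median size among called genes was 1.68-fold for the higher and 1.93-fold for the lower ones, while the median log2 fold change of all tested genes was 0.01. The number called was 312 with DESeq2 and 678 with no filter on low counts. It also depended on single libraries: it was 27 without shDRG2 replicate 1, 61 without shDRG2 replicate 2, 37 without pLKO replicate 1, 61 without pLKO replicate 2 and 103 when the shDRG2 library of replicate 2 with IFN-γ was dropped, which enters only through the shared spread. Where a group is left with 1 library, that library is assumed to vary like the other groups. Of the 88 called genes named here by rule, 16 stayed called under each of 15 alternative settings: Slc16a7, Cck, Map7d2, Cxcl10, Slc44a3, Ehd2, Itpr2, Arntl2, Pnma2, Jmjd8, Drg2, Kcnk5, Arhgap32, Zfp503, Usp29 and Pycard. The other 72 lost the call in at least 1 setting, and 0 changed direction. With the 4 unstimulated libraries alone, 15 of the 88 lost the call. They were H2-DMb1, Steap1, Fdps, Idi1, Ezr, Taldo1, Bmp1, Cdkn1a, Hspb1, Thbs3, Bscl2, Spire2, Dmpk, Tgfa and Cachd1. With DESeq2, 3 lost it: Adam12, Tgfa and Cachd1.

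**Figure D1:**
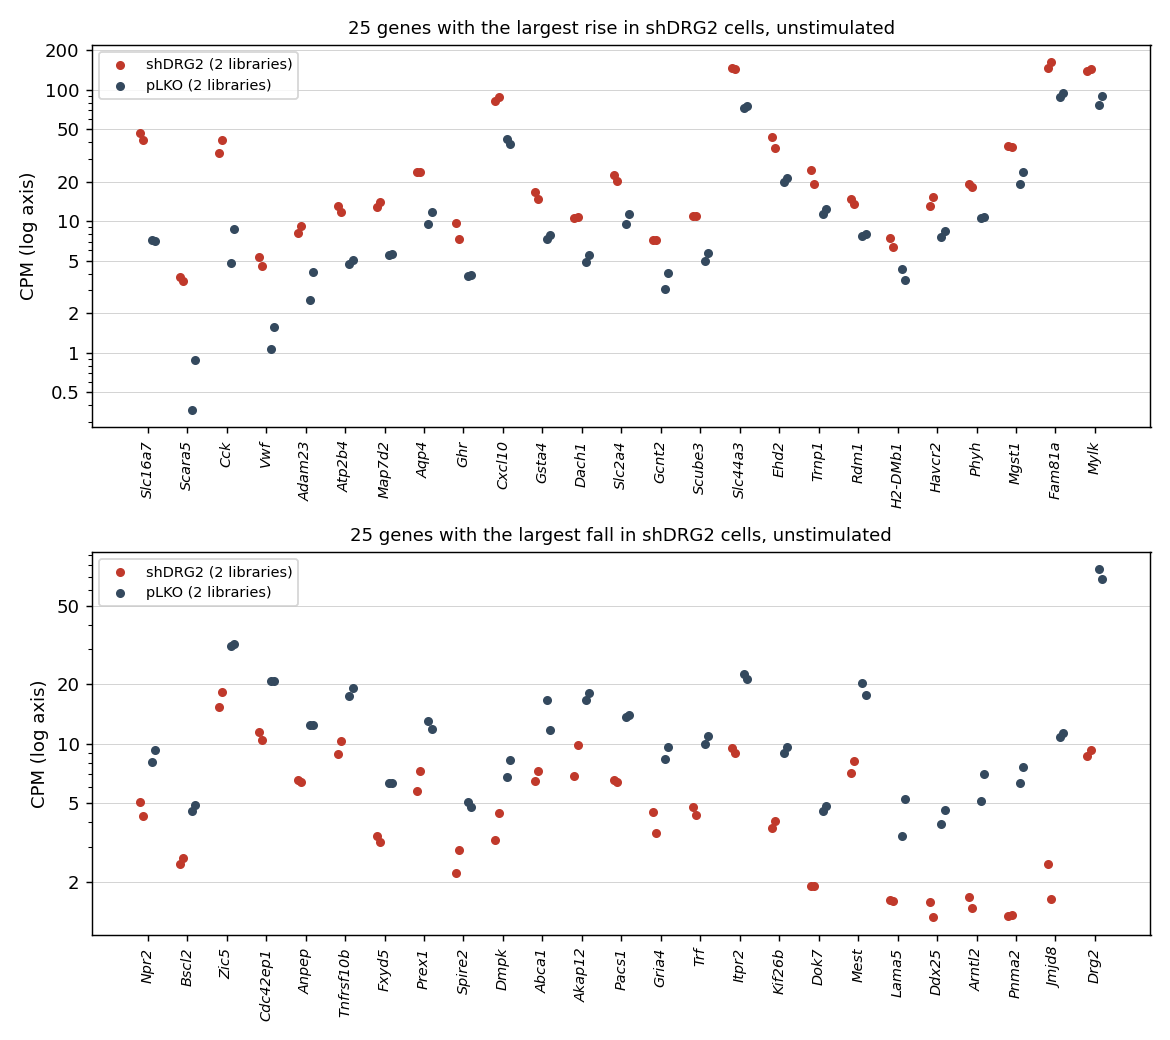
Expression in CPM, on a log axis, of the 25 genes with the largest rise (top) and the 25 with the largest fall (bottom) in unstimulated shDRG2 cells among called genes averaging at least 2 CPM; each point is 1 library, shDRG2 left of pLKO, 2 libraries per group. Slc16a7 stands at 46.9 and 41.5 CPM in shDRG2 cells and 7.18 and 7.04 CPM in pLKO cells, and Drg2 shows the largest fall.

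At the far end of the losses, 15 called genes had at most 3 counts in the 2 unstimulated shDRG2 libraries together, and 9 of these had 0. Where shDRG2 cells had 0, the fold was computed with 3 counts in place of the group's 0 and is written as "at least"; otherwise it is a ratio with its 95% counting interval. Both cover counting error only. In a bulk sample, fewer cells with a transcript and less of it per cell cannot be told apart. Promoters of 4 of these genes are shown because they lost all counts and differ in CpG content, the dinucleotide at which vertebrate DNA is methylated. The sequences are the 250 bases before the start given by RefSeq (GRCm38.p6), 5′ to 3′ on the gene's strand, with each CG in capitals: Pycard at chr7:127993868-127994117 (minus strand), Irf7 at chr7:141266425-141266674 (minus), Zfp503 at chr14:21989602-21989851 (minus) and Usp29 at chr7:6730333-6730582 (plus).
Pycard: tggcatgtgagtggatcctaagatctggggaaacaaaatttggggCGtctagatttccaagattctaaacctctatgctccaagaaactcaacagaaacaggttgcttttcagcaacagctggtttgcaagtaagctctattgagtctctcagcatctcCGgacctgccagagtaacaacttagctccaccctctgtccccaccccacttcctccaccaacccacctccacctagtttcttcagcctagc
Irf7: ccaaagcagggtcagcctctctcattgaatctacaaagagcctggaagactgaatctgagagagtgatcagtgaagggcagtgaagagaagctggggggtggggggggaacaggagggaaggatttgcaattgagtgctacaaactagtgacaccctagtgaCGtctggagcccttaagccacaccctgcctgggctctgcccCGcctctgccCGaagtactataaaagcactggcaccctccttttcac
Zfp503: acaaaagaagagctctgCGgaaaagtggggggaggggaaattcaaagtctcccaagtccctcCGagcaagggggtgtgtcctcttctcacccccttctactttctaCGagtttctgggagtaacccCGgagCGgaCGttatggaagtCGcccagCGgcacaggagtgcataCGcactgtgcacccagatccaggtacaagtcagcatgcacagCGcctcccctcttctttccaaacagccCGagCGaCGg
Usp29: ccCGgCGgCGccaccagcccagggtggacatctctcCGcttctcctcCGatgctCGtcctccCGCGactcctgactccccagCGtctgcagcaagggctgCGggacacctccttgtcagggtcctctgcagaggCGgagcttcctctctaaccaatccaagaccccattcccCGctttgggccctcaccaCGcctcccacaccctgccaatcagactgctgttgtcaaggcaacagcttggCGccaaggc
The windows hold 2 CpGs for Pycard, 3 for Irf7, 13 for Zfp503 and 14 for Usp29. Of the 15 genes, 11 had a promoter in the RefSeq table, with 2 to 34 CpGs each. The genes without one leave the set incomplete, so CpG content is not compared between gene sets here. DNA methylation itself was not measured in these libraries.

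Pycard (ENSMUSG00000030793.4, chromosome 7, 127989708 to 127993867, minus strand) encodes ASC, the adaptor that joins inflammasome sensors to caspase-1. It had 0 counts in each shDRG2 library, against 113 and 100 counts in the pLKO libraries, and was at least 63.6-fold lower (adjusted p = 7.38e-05). Gm45205 covers 12.8% of its exon bases on the opposite strand. Irf7 (ENSMUSG00000025498.15), the transcription factor that drives late type I interferon production, also had 0 counts in each shDRG2 library, against 16 and 19 in pLKO cells, at least 10.5-fold lower (adjusted p = 0.00437). Its pLKO level was only 0.489 and 0.594 CPM, so the bound is set by depth. Both genes were chosen for counts at the floor in shDRG2 cells, so the 0 counts there are part of that choice.

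Usp29, an imprinted gene for a ubiquitin-specific protease, had 0 counts in both shDRG2 libraries, against 102 and 92 counts in pLKO cells, and was at least 57.9-fold lower. Its exons are overlapped for 14.3% of their length by Zim3 on the opposite strand. Zfp503, a zinc finger repressor of chromosome 14, had 0 counts against 64 and 67 in pLKO cells (at least 39.1-fold lower). Arhgap32, a GTPase-activating protein, had 0 against a sum of 118 (at least 35.2-fold). Ubqln2, a ubiquilin that delivers substrates to the proteasome, had 0 against 96 (at least 28.7-fold). Xk, which encodes a membrane protein of the Kell complex, and Col26a1, a collagen gene, each had 0 against 33 (at least 9.85-fold).

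The other named genes at the floor kept 1 to 3 counts in shDRG2 cells. Ece1, the endothelin-converting enzyme, had 1 count against 78 in pLKO cells, a ratio of 69.9 (12.2 to 2794). Kcnk5, a background potassium channel on chromosome 14, had 3 against 140, a ratio of 41.8 (14.01 to 205). Cachd1, a calcium channel subunit homologue, had 1 against 33, and Oprd1, the delta opioid receptor, had 2 against 57. In the opposite direction, 1 called gene had at most 3 counts in pLKO cells: Gja5, the gap junction protein connexin 40, with 32 and 13 counts in shDRG2 cells, against 1 and 2 in pLKO cells, a ratio of 16.7 (5.38 to 84.2). Of the genes in this paragraph, only Kcnk5 kept its call under each alternative setting. The call of Cachd1 was lost also with DESeq2 and with the 4 unstimulated libraries alone.

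The IFN-γ libraries read the same 2 lines again, so they do not separate the hairpin from the line. They entered the choice of these genes only through the filter and the shared spread of the fit. Pycard had 2 counts in shDRG2 cells with IFN-γ, against 763 in pLKO cells with IFN-γ, a ratio of 425 (117 to 3513). Irf7 was at 0.633 and 0.547 CPM in shDRG2 cells with IFN-γ, against 16.1 and 17.8 CPM in pLKO cells with it. Usp29, Zfp503, Arhgap32, Ubqln2, Xk, Col26a1 and Kcnk5 were at 0 in both shDRG2 libraries with IFN-γ. Their sums in pLKO cells with IFN-γ ran from 32 for Col26a1 to 149 for Zfp503. Ece1 had a shallower fold, with a log2 fold change of -3.06 with IFN-γ, against -5.83 without it, and the difference was not called.

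**Figure D2:**
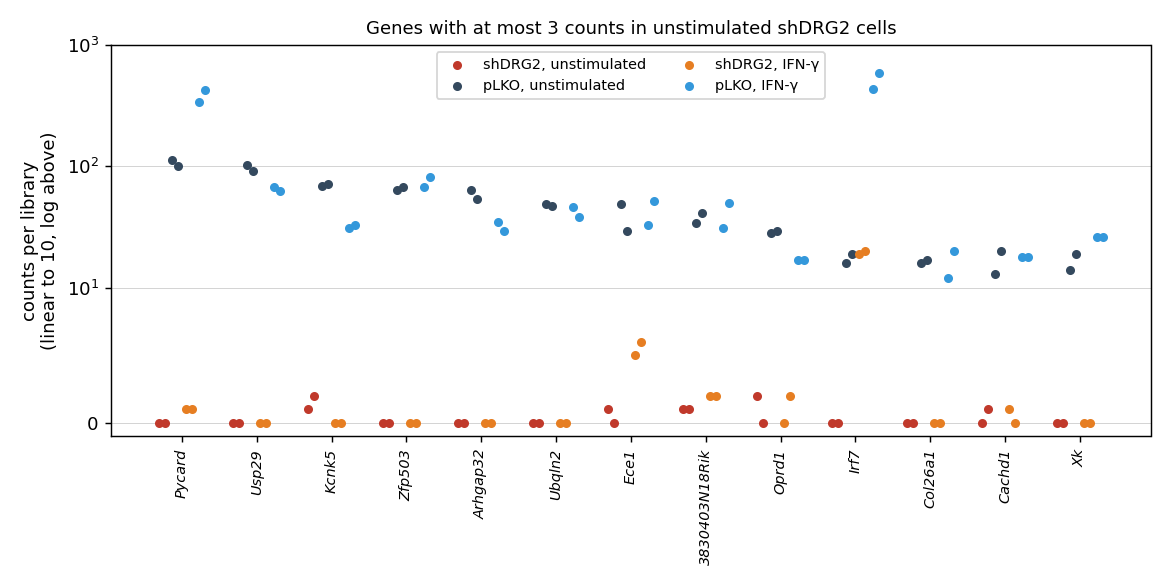
Counts per library (linear up to 10, log above) of 13 of the 15 genes with at most 3 counts in unstimulated shDRG2 cells; each point is 1 library and the 4 groups hold 2 libraries each. The unstimulated shDRG2 points lie at 0 to 2 counts, the pLKO points between 13 and 113, and Irf7 is the gene whose shDRG2 counts climb above 10 with IFN-γ.

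Membrane transporters stood among the larger rises. Slc16a7 (ENSMUSG00000020102.15, chromosome 10, 125219270 to 125389465, minus strand) encodes the monocarboxylate transporter MCT2, which carries lactate and pyruvate. It was at 46.9 and 41.5 CPM in shDRG2 cells, against 7.18 and 7.04 CPM in pLKO cells, a log2 fold change of 2.64 (95% interval 2.40 to 2.88, adjusted p = 1.64e-06). Slc16a7 was named for its call and large rise, so the separation of its libraries is no further support. Of the 8 tested monocarboxylate transporters and chaperones, Slc16a7 was the 1 called, beside 1.2% called over all genes. Bsg, the most abundant member and the chaperone of MCT1, had a log2 fold change of 0.09 (SE 0.109). Slc44a3, of the choline transporter-like family, was at 147 and 144 CPM in shDRG2 cells, against 72.5 and 75.8 CPM in pLKO cells (0.97, adjusted p = 0.000504). Slc2a4, the insulin-responsive glucose transporter GLUT4, was at 22.5 and 20.4 CPM against 9.56 and 11.4 CPM in pLKO cells (1.03, adjusted p = 0.00991). Aqp4, a water channel, was at 23.6 and 23.9 CPM against 9.56 and 11.7 CPM in pLKO cells (1.16, adjusted p = 0.00425). The 22 tested amino acid and nutrient transporters held 0 calls, and 5 of them had an unadjusted p below 0.05.

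Of 33 tested calcium channels, pumps and sensors, 1 rose and 1 fell, beside 1.2% called over all genes. Atp2b4, a calcium pump of the plasma membrane, rose to 13.1 and 11.8 CPM in shDRG2 cells, against 4.73 and 5.03 CPM in pLKO cells (1.35, SE 0.174, adjusted p = 0.00528). Itpr2, an inositol trisphosphate receptor that releases calcium from the endoplasmic reticulum, fell to 9.54 and 8.95 CPM in shDRG2 cells, against 22.4 and 21.2 CPM in pLKO cells (-1.24, SE 0.116, adjusted p = 0.00135). The list's median log2 fold change was 0.03, beside 0.01 over all genes. Both genes were named because they were called, so the lack of overlap between their groups is no further support.

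Iron and haem genes gave 4 rises and 1 fall among 21 tested members, beside 1.2% called over all genes. Slc40a1, the iron exporter ferroportin, was at 117 and 103 CPM in shDRG2 cells, against 72.7 and 66.3 CPM in pLKO cells (0.66, adjusted p = 0.00491). Steap2, a metalloreductase, was at 75.2 and 84.1 CPM against 50.7 and 54.6 CPM in pLKO cells (0.60, adjusted p = 0.00704). Its relative Steap1 (0.72, adjusted p = 0.0428) and Blvrb, a biliverdin and flavin reductase (0.71, adjusted p = 0.0428), rose by similar amounts, with calls that sat close to the threshold. Trf, the iron carrier transferrin, fell to 4.76 and 4.38 CPM in shDRG2 cells, against 10.02 and 10.98 CPM in pLKO cells (-1.20, adjusted p = 0.00528), though 63.5% of its exon bases are shared with the predicted gene Gm20425 on the same strand. Ftl1, the ferritin light chain and the most abundant member, was not called (0.09, SE 0.110). The list's median was 0.12, with 18 of 21 members above 0. Scara5, a scavenger receptor that takes up ferritin, lies on chromosome 14 and stood outside the list. It rose to 3.79 and 3.49 CPM in shDRG2 cells, against 0.367 and 0.876 CPM in pLKO cells (2.55, adjusted p = 0.0207).

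Of 39 tested glutathione genes and targets of the transcription factor NRF2, 4 rose and 0 fell, beside 0.467% called higher and 0.733% lower over all genes. Gsta4, a glutathione transferase that clears lipid aldehydes, was at 16.6 and 14.8 CPM in shDRG2 cells, against 7.33 and 7.82 CPM in pLKO cells (1.05, adjusted p = 0.00416). Mgst1, a membrane-bound glutathione transferase, was at 37.4 and 36.8 CPM against 19.1 and 23.6 CPM in pLKO cells (0.80, adjusted p = 0.00611). Gsta1 was at 89.5 and 88.1 CPM against 60.9 and 62.7 CPM in pLKO cells (0.52, adjusted p = 0.0177); it is closely similar in sequence to other alpha-class members, so its count is less certain. Taldo1, of the pentose phosphate pathway, was at 173 and 170 CPM against 133 and 133 CPM in pLKO cells (0.37, adjusted p = 0.0328). The list's median was 0.11, and well-known NRF2 targets such as Hmox1 (0.12, adjusted p = 0.733) and Slc7a11 (-0.06, adjusted p = 0.935) were not called. Phyh, a peroxisomal enzyme that breaks down branched fatty acids, rose outside this list, at 19.3 and 18.2 CPM in shDRG2 cells, against 10.5 and 10.9 CPM in pLKO cells (0.81, adjusted p = 0.00437).

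Cholesterol synthesis and uptake had the highest median among lists with a call. Of its 28 members, all of them tested, 2 rose, beside 0.467% called higher over all genes. A positive log2 fold change was found in 26, against 51.8% of all tested genes, and the median was 0.25. Idi1, an isomerase of the isoprenoid pathway, was at 199 and 193 CPM in shDRG2 cells, against 150 and 146 CPM in pLKO cells (0.40, adjusted p = 0.0328). Fdps, which makes farnesyl diphosphate, was at 321 and 286 CPM against 217 and 230 CPM in pLKO cells (0.44, adjusted p = 0.0443), with 26.7% of its exon bases shared with Gm43738 on the same strand. Cyp51, the most abundant member, had a log2 fold change of 0.25 (SE 0.0862, adjusted p = 0.243), and 16 of the 28 had an unadjusted p below 0.05. With IFN-γ the median was 0.17 and 0 were called. The calls of Idi1 and Fdps were lost with the 4 unstimulated libraries alone. Abca1, which exports cellular cholesterol and was not in the list, fell to 6.50 and 7.28 CPM in shDRG2 cells, against 16.6 and 11.8 CPM in pLKO cells (-1.05, adjusted p = 0.0281).

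A list of secreted factors and hormones, which also holds the receptor gene Ghr, had 20 tested members. Of these, 2 rose and 1 fell, beside 0.467% called higher and 0.733% lower over all genes. Cck, which encodes the gut and brain peptide cholecystokinin, was at 33.2 and 41.5 CPM in shDRG2 cells, against 4.83 and 8.79 CPM in pLKO cells (2.45, SE 0.255, adjusted p = 0.00236). Ghr, the growth hormone receptor, was at 9.73 and 7.28 CPM against 3.85 and 3.91 CPM in pLKO cells (1.14, adjusted p = 0.0172). Tgfa, a ligand of the epidermal growth factor receptor, fell to 0.124 and 0.194 CPM in shDRG2 cells, against 0.672 and 0.907 CPM in pLKO cells (-2.31, adjusted p = 0.0451). The call of Tgfa was lost with DESeq2 and with the 4 unstimulated libraries alone. The list's median was 0.02. Several ligands and receptors outside it were also called. Scube3, a secreted glycoprotein with EGF-like repeats, rose to 10.88 and 11.002 CPM in shDRG2 cells, against 5.01 and 5.75 CPM in pLKO cells. Havcr2, which encodes the checkpoint receptor TIM-3, rose to 13.0 and 15.2 CPM in shDRG2 cells, against 7.61 and 8.38 CPM in pLKO cells (0.81, adjusted p = 0.0281). Ephb4, an ephrin receptor, was the 1 called of 22 tested receptor tyrosine kinases and fell to 16.7 and 13.6 CPM in shDRG2 cells, against 25.7 and 25.5 CPM in pLKO cells. Gria4, an AMPA glutamate receptor subunit, fell to 4.51 and 3.53 CPM in shDRG2 cells, against 8.37 and 9.60 CPM in pLKO cells.

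Of 44 tested collagens, laminins and matricellular proteins, 3 fell and 1 rose, beside 0.733% called lower and 0.467% higher over all genes. Of the 44, 30 had a negative log2 fold change, and the median was -0.17. Lama5, the laminin alpha-5 chain, was at 1.62 and 1.59 CPM in shDRG2 cells, against 3.42 and 5.25 CPM in pLKO cells (-1.43, adjusted p = 0.0317). Thbs3, a thrombospondin, was at 3.92 and 3.99 CPM against 6.99 and 6.60 CPM in pLKO cells (-0.78, adjusted p = 0.0287), and Col26a1 was the third that fell. Vwf, the von Willebrand factor of platelets and endothelium, rose to 5.35 and 4.57 CPM in shDRG2 cells, against 1.07 and 1.56 CPM in pLKO cells (1.91, adjusted p = 0.0142). Of the other endothelial markers, Cdh5, Kdr and Tie1 were at 0 in all 4 unstimulated libraries. The list of 10 endothelial markers, of which 3 were tested and 4 were at 0 throughout, summed to 187 and 167 CPM in shDRG2 cells, against 205 and 177 CPM in pLKO cells, nearly all of it Eng. Of 35 tested matrix proteases and inhibitors, Adam23 rose (1.39, adjusted p = 0.0197), Adam19 rose (0.49, adjusted p = 0.0328) and Adam12 fell (-1.67, adjusted p = 0.0392), and the list's median was -0.12. Adam23 is a catalytically inactive member of the ADAM family, while the other two are active metalloproteases.

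Cytoskeletal and trafficking genes held calls in both directions, beside 1.2% called over all genes. Ezr, which links the membrane to actin, rose (0.38, adjusted p = 0.0314). Akap12, a scaffold of protein kinase A, fell to 6.84 and 9.80 CPM in shDRG2 cells, against 16.74 and 18.04 CPM in pLKO cells (-1.07, adjusted p = 0.0162). Of 67 tested microtubule motors and associated proteins, Map7d2, which binds microtubules, rose to 12.81 and 13.98 CPM in shDRG2 cells, against 5.50 and 5.63 CPM in pLKO cells (1.27, adjusted p = 0.00302). Kif26b, an atypical kinesin, fell to 3.73 and 4.07 CPM in shDRG2 cells, against 8.98 and 9.66 CPM in pLKO cells (-1.26, adjusted p = 0.0207). Of 88 tested endosomal sorting genes, Ehd2, an ATPase of caveolar membranes, rose to 43.83 and 35.99 CPM in shDRG2 cells, against 20.04 and 21.23 CPM in pLKO cells (0.95, adjusted p = 0.00349). Pacs1, which sorts membrane cargo, fell to 6.53 and 6.39 CPM in shDRG2 cells, against 13.7 and 13.9 CPM in pLKO cells (-1.09, adjusted p = 0.00399). The medians of these 2 lists were 0.00 for microtubules and 0.04 for endosomes. The 49 tested Rab GTPases (median 0.08) and the 15 tested genes of mitochondrial dynamics (median 0.01) held 0 calls, with 10 and 2 members at an unadjusted p below 0.05. Mylk, the myosin light chain kinase, rose outside these lists, to 139 and 144 CPM in shDRG2 cells, against 77.2 and 90.1 CPM in pLKO cells, and Prex1, an exchange factor for Rac, fell to 5.75 and 7.24 CPM, against 13.1 and 11.9 CPM in pLKO cells.

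**Figure D3:**
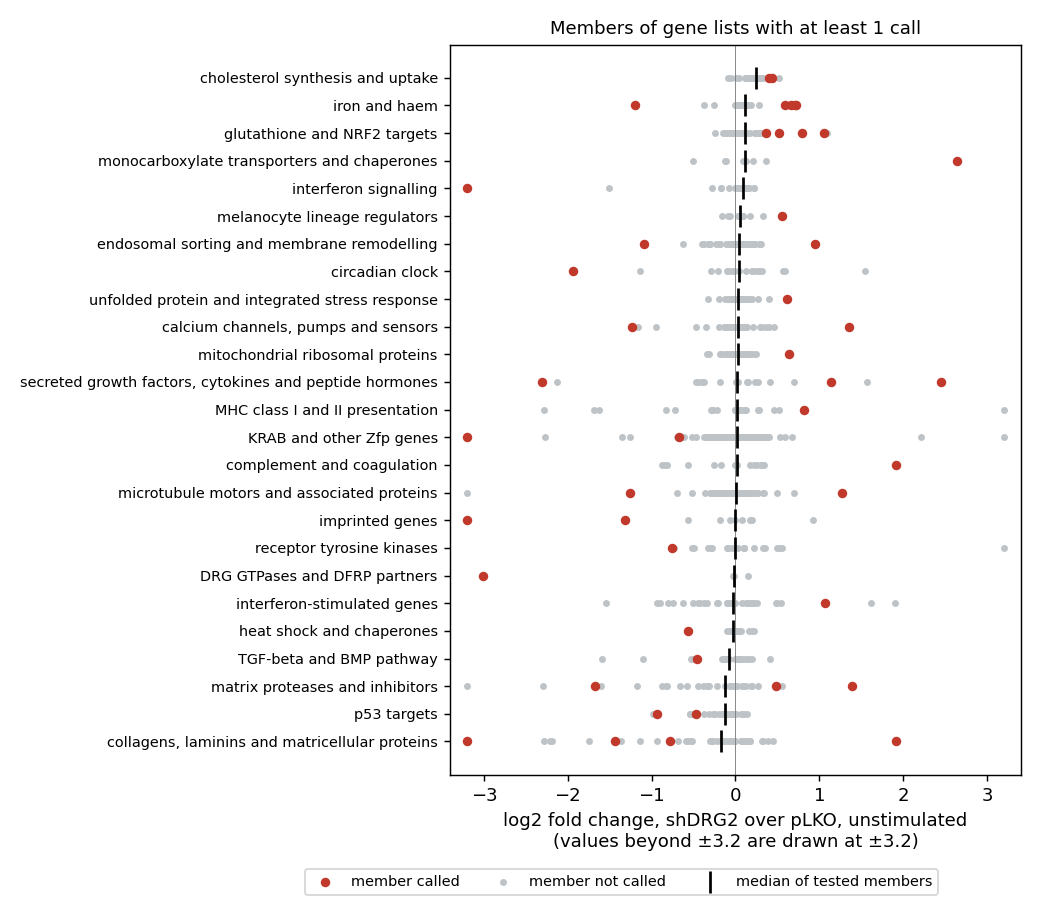
Log2 fold change, shDRG2 over pLKO without IFN-γ, of the tested members of 25 of the gene lists with at least 1 call, marker lists left out; each point is 1 gene, called members in red, the black bar is the list's median, and values beyond 3.2 in size are drawn at that limit. Medians run from -0.17 for collagens, laminins and matricellular proteins to 0.25 for cholesterol synthesis and uptake.

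Of the interferon genes, 2 were called. Cxcl10 (ENSMUSG00000034855.13, chromosome 5, 92346638 to 92348889, minus strand), a chemokine that draws T cells and is induced by interferons, was at 81.9 and 87.5 CPM in shDRG2 cells, against 42.0 and 38.7 CPM in pLKO cells. The log2 fold change was 1.07 (95% interval 0.87 to 1.27, SE 0.0902, adjusted p = 0.000565). It was the 1 called of 40 tested interferon-stimulated genes, whose median was -0.03 with 24 negative, and Irf7 was the 1 called of 23 tested interferon signalling genes, whose median was 0.09. Over all genes 1.2% were called. Irf1, an interferon-induced transcription factor, was not called (0.11, adjusted p = 0.828). H2-DMb1, a chain of the chaperone that loads MHC class II, was the 1 called of 22 tested presentation genes, at 7.52 and 6.39 CPM in shDRG2 cells, against 4.31 and 3.60 CPM in pLKO cells (0.82, adjusted p = 0.0289); its close copy H2-DMb2 makes its count less certain.

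The Cxcl10 promoter is shown because this gene stood alone among the interferon-stimulated genes tested. The window is chr5:92348890-92349139, minus strand, the 250 bases before the RefSeq start (GRCm38.p6), with capitals on the matches to the motifs searched.
Cxcl10: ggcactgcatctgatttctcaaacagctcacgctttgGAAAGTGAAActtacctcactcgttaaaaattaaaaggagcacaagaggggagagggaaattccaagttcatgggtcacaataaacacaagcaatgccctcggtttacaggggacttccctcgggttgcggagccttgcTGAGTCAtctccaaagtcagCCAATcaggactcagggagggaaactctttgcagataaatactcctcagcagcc
The capitals mark, in order, an interferon-stimulated response element (GAAA, any 2 bases, GAAA) at 213 to 204 bases before the start, an AP-1 site (TGACTCA) on the other strand at 74 to 68 bases, and an inverted CCAAT box (ATTGG) on the other strand at 54 to 50 bases. Both strands were searched and these matches do not overlap. The canonical E-box, the sterol regulatory element and the M-box were also searched and had no match here. Other elements were not searched. Of 18357 promoters of the same length, 2.96% hold the response element, 3.99% the AP-1 site and 35.4% the CCAAT box. The match is a description of the letters, and no binding was measured.

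Growth and stress regulators showed smaller changes. Of 30 tested p53 targets, 2 fell and 0 rose, beside 0.733% called lower and 0.467% higher over all genes. Of the 30, 25 had a negative log2 fold change, against 47.8% of all tested genes, and the median was -0.13. Cdkn1a, the cell cycle inhibitor p21, was at 133 and 141 CPM in shDRG2 cells, against 178 and 201 CPM in pLKO cells (-0.47, SE 0.0799, adjusted p = 0.0236). Tnfrsf10b, the death receptor for TRAIL, was at 8.83 and 10.3 CPM against 17.44 and 19.04 CPM in pLKO cells (-0.93, adjusted p = 0.00915), and it lies on chromosome 14, where 6.19% of tested genes were called lower. Mdm2, another p53 target, was not called (-0.26, adjusted p = 0.170). Atf6, a sensor of unfolded proteins in the endoplasmic reticulum, rose to 78.0 and 76.5 CPM in shDRG2 cells, against 50.5 and 50.3 CPM in pLKO cells (0.62, SE 0.0757, adjusted p = 0.00425), the 1 called of 32 tested stress response genes. Hspb1, a small heat shock protein, was the 1 called of 27 chaperones and fell (-0.57, adjusted p = 0.0480). The calls of Cdkn1a and Hspb1 were lost with the 4 unstimulated libraries alone. Mrps6, a protein of the mitochondrial ribosome, was at 148 and 138 CPM in shDRG2 cells, against 92.6 and 91.5 CPM in pLKO cells (0.64, adjusted p = 0.00589), the 1 called of 77 tested members, and 19.9% of its exon bases are shared with Gm49711.

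Transcription factors and developmental regulators were also among the calls, which made up 1.2% of all tested genes. Sox9, a neural crest factor, rose to 45.6 and 42.5 CPM in shDRG2 cells, against 29.4 and 30.4 CPM in pLKO cells (0.56, adjusted p = 0.0173), the 1 called of 12 tested melanocyte lineage regulators. Mitf, the master regulator of that lineage, was at 432 and 460 CPM in shDRG2 cells and 456 and 477 CPM in pLKO cells and was not called (-0.06, adjusted p = 0.853). Arntl2, a partner of CLOCK, fell to 1.68 and 1.47 CPM in shDRG2 cells, against 5.10 and 7.04 CPM in pLKO cells (-1.94, SE 0.205, adjusted p = 0.00258). It was the 1 called of 21 tested clock genes, whose median was 0.04, and 10 of the 21 had an unadjusted p below 0.05. Dach1, a transcriptional cofactor, rose to 10.6 and 10.7 CPM in shDRG2 cells, against 4.89 and 5.50 CPM in pLKO cells. It and Scara5 were the 2 genes of chromosome 14 called higher. Zic5, a zinc finger factor of the neural crest, lies on the same chromosome and fell to 15.4 and 18.4 CPM in shDRG2 cells, against 31.2 and 32.0 CPM in pLKO cells (-0.91, adjusted p = 0.00541).

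Several of the steepest falls had no list in common. Jmjd8, which encodes a JmjC-domain protein of the endoplasmic reticulum, was at 2.46 and 1.63 CPM in shDRG2 cells, against 10.8 and 11.4 CPM in pLKO cells (-2.42, SE 0.196, adjusted p = 0.000504). Stub1 covers 39.3% of its exon bases on the opposite strand, and reads of the pair cannot be told apart without strand. Pnma2, a gag-derived neuronal antigen on chromosome 14, was at 1.34 and 1.36 CPM against 6.32 and 7.60 CPM in pLKO cells (-2.37, SE 0.194, adjusted p = 0.000504). Ddx25, an RNA helicase of the germ line, was at 1.59 and 1.32 CPM against 3.94 and 4.60 CPM in pLKO cells (-1.55, adjusted p = 0.00764). Mest, an imprinted gene for a hydrolase-like protein, was at 7.12 and 8.14 CPM against 20.2 and 17.6 CPM in pLKO cells (-1.31, adjusted p = 0.0106), with 23.1% of its exon bases covered by Copg2 on the opposite strand. Mest and Usp29 were the 2 called of 11 tested imprinted genes, beside 1.2% called over all genes. Dok7, an adaptor of the muscle kinase MuSK, fell to 1.90 and 1.90 CPM in shDRG2 cells, against 4.55 and 4.85 CPM in pLKO cells. These genes were named for their calls and falls, so the separation of their libraries is no further support.

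Among the other named genes, Gcnt2, a glycosyltransferase that branches blood group I chains, rose to 7.24 and 7.21 CPM in shDRG2 cells, against 3.05 and 4.03 CPM in pLKO cells (1.03, adjusted p = 0.0317). Fam81a (0.76, adjusted p = 0.00642), Rdm1 (0.84, adjusted p = 0.0106) and the nuclear protein gene Trnp1 (0.88, adjusted p = 0.0169) also rose. The falls included enzymes and receptors of the cell surface. Anpep, aminopeptidase N, was at 6.56 and 6.43 CPM in shDRG2 cells, against 12.37 and 12.41 CPM in pLKO cells (-0.93, adjusted p = 0.0328). Npr2, a natriuretic peptide receptor, was at 5.07 and 4.30 CPM against 8.03 and 9.29 CPM in pLKO cells (-0.88, adjusted p = 0.0331). Fxyd5, a regulator of the sodium pump, also fell (-0.94, adjusted p = 0.0226), as did Bscl2, whose product seipin shapes lipid droplets (-0.90, adjusted p = 0.0428). The kinase gene Dmpk (-0.98, adjusted p = 0.0443), the actin nucleator gene Spire2 (-0.95, adjusted p = 0.0444) and Cdc42ep1, an effector of CDC42 (-0.92, adjusted p = 0.0248), fell by similar amounts. Bmp1, a procollagen protease of chromosome 14, was the 1 called of 23 tested TGF-beta and BMP pathway genes and fell (-0.46, adjusted p = 0.0392). Of 304 tested zinc finger genes, Zfp365 (-0.67, adjusted p = 0.0177) and Zfp503 were called, both lower, and the list's median was 0.02. Over all genes 0.733% were called lower.

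Many pathways held no call in the fit used here, where 1.2% of all tested genes were called. Of the 58 lists, 31 had 0 members called, among them cytosolic ribosomal proteins (79 tested, median 0.02), translation factors (66, -0.01), aminoacyl-tRNA synthetases (37, 0.01), the nuclear-encoded respiratory chain (78, 0.05) and the 26S proteasome (37, 0.07). Genes of DNA replication (37, 0.01) and mitosis (32, 0.08) held none, nor did lysosomal genes (35, 0.12) and autophagy genes (29, 0.07). In those 9 lists, 0 to 7 members had an unadjusted p below 0.05. Melanin synthesis and melanosome genes (27 tested, median 0.12) had 8 such members, and Tyr, the first enzyme of melanin synthesis, came closest, at 308 and 267 CPM in shDRG2 cells and 207 and 220 CPM in pLKO cells (0.43, adjusted p = 0.0504). The 19 tested genes of ERK pathway feedback and output had a median of -0.16 with 16 negative and 0 called. The 13 mitochondrially encoded mRNAs had a median of 0.06, and mitochondrial transcripts took 5.19% and 4.96% of counts in shDRG2 cells, against 5.28% and 4.43% in pLKO cells.

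Position on the genome set 1 chromosome apart. Chromosome 14 had 436 tested genes, of which 27 were called lower, or 6.19%, and 2 higher, whereas 72 of 12366 tested genes on other chromosomes were called lower, or 0.582%. The median log2 fold change of chromosome 14 genes was -0.28, a level of 82.4% of that in pLKO cells, and the medians of the other 20 chromosomes, the mitochondrial one included, lay between -0.02 and 0.06. The shift was shallow and wide: 16 of the 27 lower calls were under 1.5-fold and 6 were at least 2-fold. Among genes that averaged at least 10 CPM, 278 of 296 on chromosome 14, or 93.9%, had a negative fold change, against 42.8% elsewhere. In windows of 10 Mb with at least 20 tested genes, the 7 windows of chromosome 14 had medians of -0.35 to -0.22, and the other windows, 216 in all with those, had medians of -0.11 to 0.13. Those 7 windows span 10 to 80 Mb. The other 6 windows of the chromosome held 4 to 18 tested genes each, with medians of -0.32 to -0.13.

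Well expressed genes of unrelated function showed this, and 3 were picked as examples after their values were seen. Supt16, a subunit of the histone chaperone FACT, was at 173 and 184 CPM in shDRG2 cells, against 255 and 239 CPM in pLKO cells (-0.47, adjusted p = 0.0165); Rpgrip1 covers 21.0% of its exon bases on the opposite strand. Xpo7, a nuclear transport receptor, was at 56.6 and 57.5 CPM against 83.4 and 80.7 CPM in pLKO cells (-0.53, adjusted p = 0.00590). Mapk8, the kinase JNK1, was at 22.3 and 22.9 CPM against 30.8 and 29.3 CPM in pLKO cells (-0.41, adjusted p = 0.0459). With IFN-γ the chromosome's median was -0.27, and of the 27 genes called lower without it all were negative and 19 were called. With chromosome 14 left out before scaling, 127 genes were called, 58 higher and 69 lower, all of them among the 162. DNA copy number was not measured in these libraries.

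**Figure D4:**
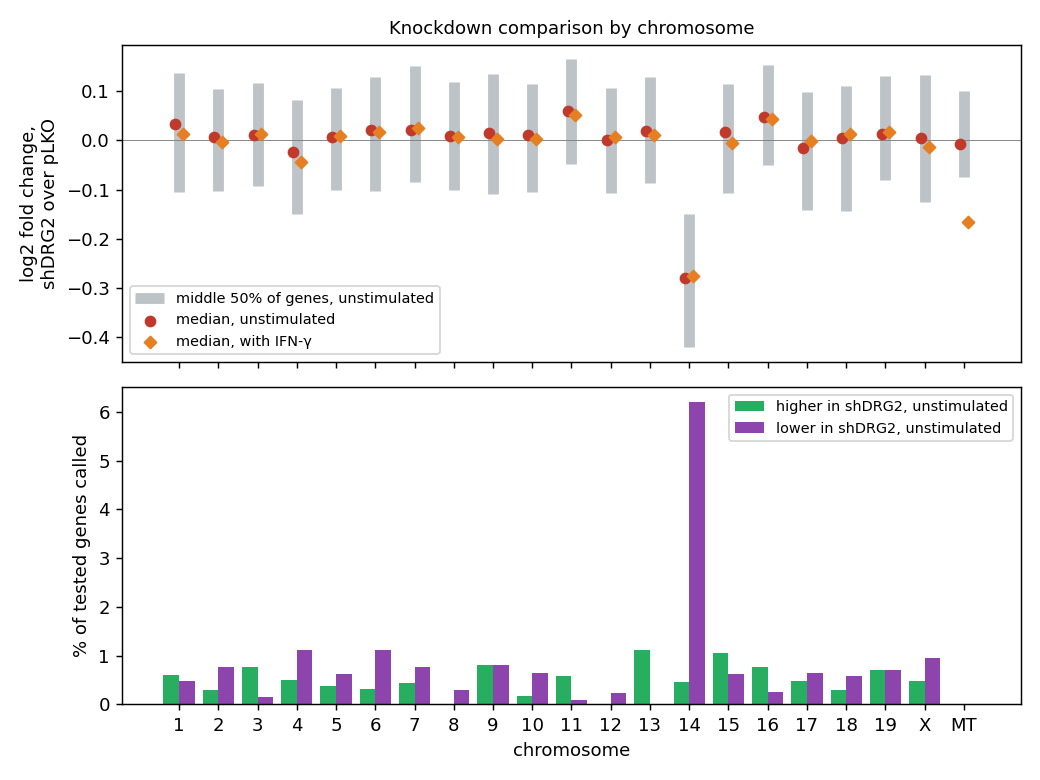
Top, log2 fold change of shDRG2 over pLKO by chromosome: median without IFN-γ (red), median with IFN-γ (orange) and the middle 50% of tested genes without it (grey bars). Bottom, share of tested genes called higher or lower without IFN-γ; chromosome 14 stands apart with a median of -0.28 and 6.19% of its genes called lower, beside at most 1.12% on any other chromosome.

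The same contrast in IFN-γ-treated cells gave 226 called genes, 1.67% of those tested, 68 higher (0.504%) and 158 lower (1.17%). That number was 44 and 58 without replicate 1 and replicate 2 of shDRG2 with IFN-γ, and 86 and 123 without those of pLKO with IFN-γ. Of the 162 genes called without IFN-γ, 160 had the same sign with it, where 69.1% of all tested genes kept their sign, and 104 were called in the same direction, 36 higher and 68 lower. These 104 make up 64.2% of the unstimulated calls and 46.0% of the calls with IFN-γ. The median log2 fold change of the 63 higher genes was 0.75 without IFN-γ and 0.65 with it, and that of the 99 lower genes was -0.95 and -0.81. The genes were chosen by the unstimulated fold, so the first value of each pair is fixed by that choice. Gsta1 (0.52 and -0.04) and Vwf (1.91 and -0.27) changed sign, with an adjusted p of 1.00 for the difference in both. Vwf was at 0.433 and 0.246 CPM in shDRG2 cells with IFN-γ, against 0.482 and 0.335 CPM in pLKO cells with it.

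A test of the difference between the knockdown effects, without minus with IFN-γ, called 1 gene, 0.00741% of those tested, and 321 had an unadjusted p below 0.05; 2 genes were called without pLKO replicate 1. That gene was the processed pseudogene Gm8226 (chromosome 9, 84423984 to 84424781, plus strand), at 11.4 and 12.2 CPM in shDRG2 cells, against 5.28 and 4.75 CPM in pLKO cells without IFN-γ, and at 11.4 and 7.57 CPM against 0 and 0 CPM with it. Genes with large unstimulated changes were not called by this test. Slc16a7 was at 10.4 and 10.1 CPM in shDRG2 cells with IFN-γ, against 1.41 and 1.37 CPM in pLKO cells with it, and its difference of -0.25 had a 95% interval of -0.64 to 0.15. For Cck the fold change was 2.45 without IFN-γ and 0.92 with it, a difference of 1.53 (unadjusted 95% interval 0.29 to 2.77, adjusted p = 1.00). For Cxcl10, at 1016 and 921 CPM in shDRG2 cells with IFN-γ and 778 and 723 CPM in pLKO cells with it, the folds were 1.07 and 0.37, a difference of 0.70 (0.43 to 0.98, adjusted p = 0.656). For Arntl2 the folds were -1.94 and -0.81, a difference of -1.12 (-1.73 to -0.52, adjusted p = 1.00). A p that misses the threshold does not show that the effects were alike.

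**Figure D5:**
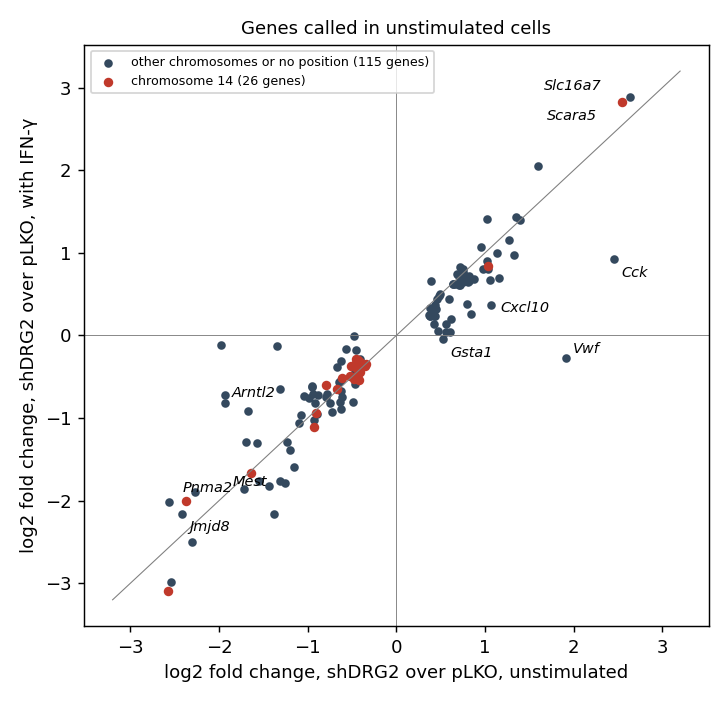
Log2 fold change of shDRG2 over pLKO without IFN-γ (x axis) and with IFN-γ (y axis) for 141 of the 162 genes called without IFN-γ, chromosome 14 in red; the grey diagonal marks equal folds, and 21 genes beyond 3.2 on either axis are not drawn. Most points lie near the diagonal, with Cck (2.45 and 0.92) and Vwf (1.91 and -0.27) furthest below it on the right.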

How the data were processed

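RNA from 8 libraries of B16F10 cells, 4 groups of 2, was sequenced by the authors; the 4 unstimulated libraries, shDRG2 and pLKO, carry the comparison. The deposited values are expected counts (estimated counts) per gene, not normalised by the authors. Per the submitters' processing notes, STAR, Salmon 1.5.2 and mm10 were used, with no role or order given, and neither the annotation release nor the strandedness is given. The labels' protocol text names both 100-base and 150-base paired reads. Of nonzero values, 86.4% were whole to within 0.0015. The table had 45583 entries; 27 names turned into dates, with 0.204% to 0.212% of counts, were left out.

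Counts were rounded and fitted in R 4.3.3 with edgeR 4.0.16, over all 8 libraries with 1 coefficient per group: filterByExpr, TMM scaling, quasi-likelihood F test (two-sided), Benjamini-Hochberg adjustment over 13500 genes. The common biological coefficient of variation was 8.49%, with 4 residual degrees of freedom. Alternatives used DESeq2 1.42.0, other scalings and filters, a replicate block and left-out libraries. Library totals ran from 25422758 to 36654519 counts. Positions are from GENCODE M21 (GRCm38), which matched 91.8% of names; 698 tested genes had none. Promoters are from RefSeq (GRCm38.p6).

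The genes named by rule are Drg2, Drg1, Rwdd1, Zc3h15 and Cd274; the 25 largest rises and 25 largest falls among called genes, predicted symbols aside, averaging at least 2 CPM over the 4 unstimulated libraries; called genes with at most 3 counts in a group; called members of 58 gene lists, of which the most abundant member may be named; and Gm8226. Irf1, Hmox1, Slc7a11, Mdm2, Mitf, Tyr, Supt16, Xpo7, Mapk8 and the cell type markers named were chosen after their values were seen. A few genes and 1 list that the rule covers are not reported here. These members and lists were chosen with earlier results of these data known. The fit was tested on simulated data.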

Additional observations from a re-analysis of the deposited data

Results flagged for a closer look

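Gm8226, a processed pseudogene on chromosome 9, was singled out because its knockdown effect differed between unstimulated and IFN-γ-treated cells by a test of the difference itself. Without IFN-γ it had 367 and 315 counts in shDRG2 cells, against 173 and 152 in pLKO cells (log2 fold change 1.23, SE 0.202, adjusted p = 0.0258). With IFN-γ it had 619 counts over both shDRG2 libraries, against 0 in pLKO cells, and was at least 185-fold higher. The fitted difference, without minus with IFN-γ, was -9.97 (adjusted p = 0.00478 by edgeR's quasi-likelihood test); its size depends on the prior count because 1 group was at 0. Processed pseudogenes share sequence with their parent gene, and how the authors' counting split such reads was not tested.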

How the results depend on the processing

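The number of genes called without IFN-γ, 162, was 312 with DESeq2, 678 with no filter and 673 with a replicate block, and from 27 to 167 as each of the 8 libraries was left out in turn; the other scalings, a 1 CPM filter, the 4 unstimulated libraries alone and the fit without chromosome 14 gave 127 to 175. DESeq2 shared 157 of the 162 calls and the fit with no filter all 162. With IFN-γ, 226 became 653 with no filter, 675 with a replicate block and 44 to 202 with a library left out. For the difference, 1 became 9 with DESeq2, 58 with no filter, 2 with a replicate block and 1 to 2 with a library left out. The median of chromosome 14, -0.2796, was -0.3006 by library size alone, -0.2932 by upper quartile, -0.2728 with no filter, -0.2746 with the 1 CPM filter, and -0.2843 to -0.2699 with a library left out. The cause of these moves was not tested.

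Among the 88 called genes named by rule, 0 reversed. The call was lost for 69 without shDRG2 replicate 1, 47 without shDRG2 replicate 2, 61 without pLKO replicate 1 and 46 without pLKO replicate 2, where the lone library of a group is assumed to vary like the other groups. The unstimulated groups share only a replicate number: the deviations of same-numbered libraries correlated at 0.204 between shDRG2 and pLKO across genes, and at 0.107 to 0.274 over the 6 pairs of groups, and with 2 replicates per group the labels do not show that the numbers pair samples. The replicate block raised the calls without IFN-γ to 673, all 162 among them, and those lower on chromosome 14 to 140, against 27 without it; counts per list, including the lists with no call, are from the fit without it. Depth limits the folds of genes at the floor of 3 counts.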
